A study of Mus musculus with 16 samples.

Results

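Type I interferon-stimulated genes are the genes that cells switch on when interferon alpha or beta binds its receptor, and 33 of them were followed here in natural killer (NK) cells. They were taken as the rows of the deposited read-count table whose gene symbol matched a list of 33 symbols, and all 33 were found among the 49671 genes of the table. All 33 also passed the filter on low counts and were tested together with the other genes, 13940 in all.

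The NK cells came from mice with a transplanted mammary tumour. There were 16 libraries in 4 groups of 4: NK cells from the lungs of mice given diphtheria toxin (lung DT), from the lungs of mice given PBS (lung PBS), from the axillary tumour-draining lymph nodes of mice given diphtheria toxin (LN DT), and from those nodes of mice given PBS (LN PBS). Every mouse was of the FVB/N background, had the genotype Cdh1F/F;Trp53F/F;Foxp3GFP-DTR and carried a KEP tumour of 100 mm2 placed orthotopically. The Foxp3GFP-DTR allele gives the diphtheria toxin receptor to cells that express Foxp3, the factor that marks regulatory T cells, so that 25 ug of toxin (DT), given at T=0 and T=7 in units that the labels do not name, acts on those cells; the comparison of DT with PBS asks what NK cells express after that treatment. The floxed Cdh1 and Trp53 alleles were shared by all 4 groups, and the labels name no Cre in the host. Cells were sorted as live CD45+ CD3- NKp46+ DX5+ cells and their RNA was made into full-length Smart-seq2 libraries. The lungs, but not the nodes, were digested with Liberase and cleared of red cells, so handling and tissue cannot be told apart. The study's design text speaks of 4 biological replicates per group; no label names the animal.

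Type I interferon signals through the receptor chains Ifnar1 and Ifnar2 and the kinases Jak1 and Tyk2 to a complex that includes Stat2 and Irf9 and binds a short DNA element, the interferon-stimulated response element, in front of its target genes. The targets include enzymes and binding proteins that act on viral nucleic acid, sensors that feed back into interferon induction, and brakes such as Usp18, which limits signalling at the receptor. In NK cells, type I interferon is known for priming cytotoxicity and survival.

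The promoters are shown first because the response element is what many of these genes have in common. RefSeq promoter windows on GRCm38.p6, running from 250 bases before to 50 after the start of transcription, were matched for 23 of the 33 genes. The core of the element, GAAANNGAAA, searched on both strands with overlapping matches kept, was present in 13 of the 23 genes (56.5%), against 3.99% of all 27025 genes with a window. At least 2 matches were found in 6 of the 23, against 0.266% of all genes. The element of the interferon gamma pathway, TTCNNNGAA, which is its own reverse complement and can overlap the first, was found in 5 of the 23 (21.7%), against 9.55% of all genes. Below, 60 bases around the matches are printed on the strand of the gene, 5′ to 3′, with the matches in capitals (those that begin with TTTC are the core read from the other strand). The 7 windows shown were picked, after the values were seen, among the 13 genes that hold the core, for genes described in the results; Ifi44, called below, has a window without the core, and no window was matched for Rtp4, Usp18, Ly6e or Ifi27l2a. They lie at chr19:34640769-34640828 (Ifit1), chr19:34583365-34583424 (Ifit3), chr19:34607761-34607820 (Ifit3b), chr5:120777700-120777759 (Oas3), chr5:120907508-120907567 (Oas1a), chr4:156200856-156200915 (Isg15) and chr10:128270251-128270310 (Stat2). The genes of Oas3, Oas1a and Isg15 are on the minus strand and the others on the plus strand.
Ifit1: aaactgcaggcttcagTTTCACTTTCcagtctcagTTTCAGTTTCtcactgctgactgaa
Ifit3: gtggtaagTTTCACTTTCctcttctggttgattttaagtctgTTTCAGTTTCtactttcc
Ifit3b: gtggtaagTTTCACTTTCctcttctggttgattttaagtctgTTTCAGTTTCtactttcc
Oas3: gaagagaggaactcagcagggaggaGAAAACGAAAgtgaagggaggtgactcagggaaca
Oas1a: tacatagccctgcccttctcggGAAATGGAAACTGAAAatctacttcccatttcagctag
Isg15: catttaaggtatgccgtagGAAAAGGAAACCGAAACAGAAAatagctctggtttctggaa
Stat2: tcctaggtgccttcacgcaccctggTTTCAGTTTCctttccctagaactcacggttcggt

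The Ifit3 and Ifit3b windows printed are identical, and the longest identical stretch of their promoter windows is 169 bases. Ifit1 carries 2 matches and Isg15 carries 3 that overlap. Genes with and without the core are set side by side: in lung PBS minus LN PBS, 12 of the 13 genes with a match and 10 of the 10 without had a fold change below 0, with median log2 fold changes of -1.47 and -1.29. The copies within families also share transcript sequence. Of the 50-base stretches in the transcripts, 57.6% of those of Oas1a also occur in Oas1g, 51.2% of those of Ifit3 occur in Ifit3b, and 47.0% of those of Phf11b occur in other genes. Reads of these genes and of Ifit3b (45.0%) may have been split or dropped in counting, so their levels are uncertain. Rtp4, at 11.6%, and Ifi35, at 10.4%, also share exon sequence with an overlapping gene, and no source used here gives the strand setting of the counting.

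The libraries held between 3929560 and 10744934 counts, with a count for 14032 to 19196 genes. NK genes were high everywhere: the summed level of 15 NK genes, among them Ncr1, which encodes NKp46 of the sort gate, lay between 27575 and 74024 CPM (counts scaled to library size by TMM). The highest values in the lung and in the node were those of the DT libraries numbered 1, at 71032 in lung DT 1 and 74024 in LN DT 1. The share of mitochondrial counts was 3.11% to 4.40% in lung DT libraries and 0.951% to 2.57% in lung PBS libraries (exact permutation p = 0.0286, two-sided, the smallest that 4 against 4 allows). It was 1.24% to 4.93% in LN DT and 1.05% to 1.68% in LN PBS (exact permutation p = 0.114). Transcripts of other cells were also present. In sorted bulk cells, fewer cells of a type and less RNA per cell cannot be told apart.

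**Figure D1:**
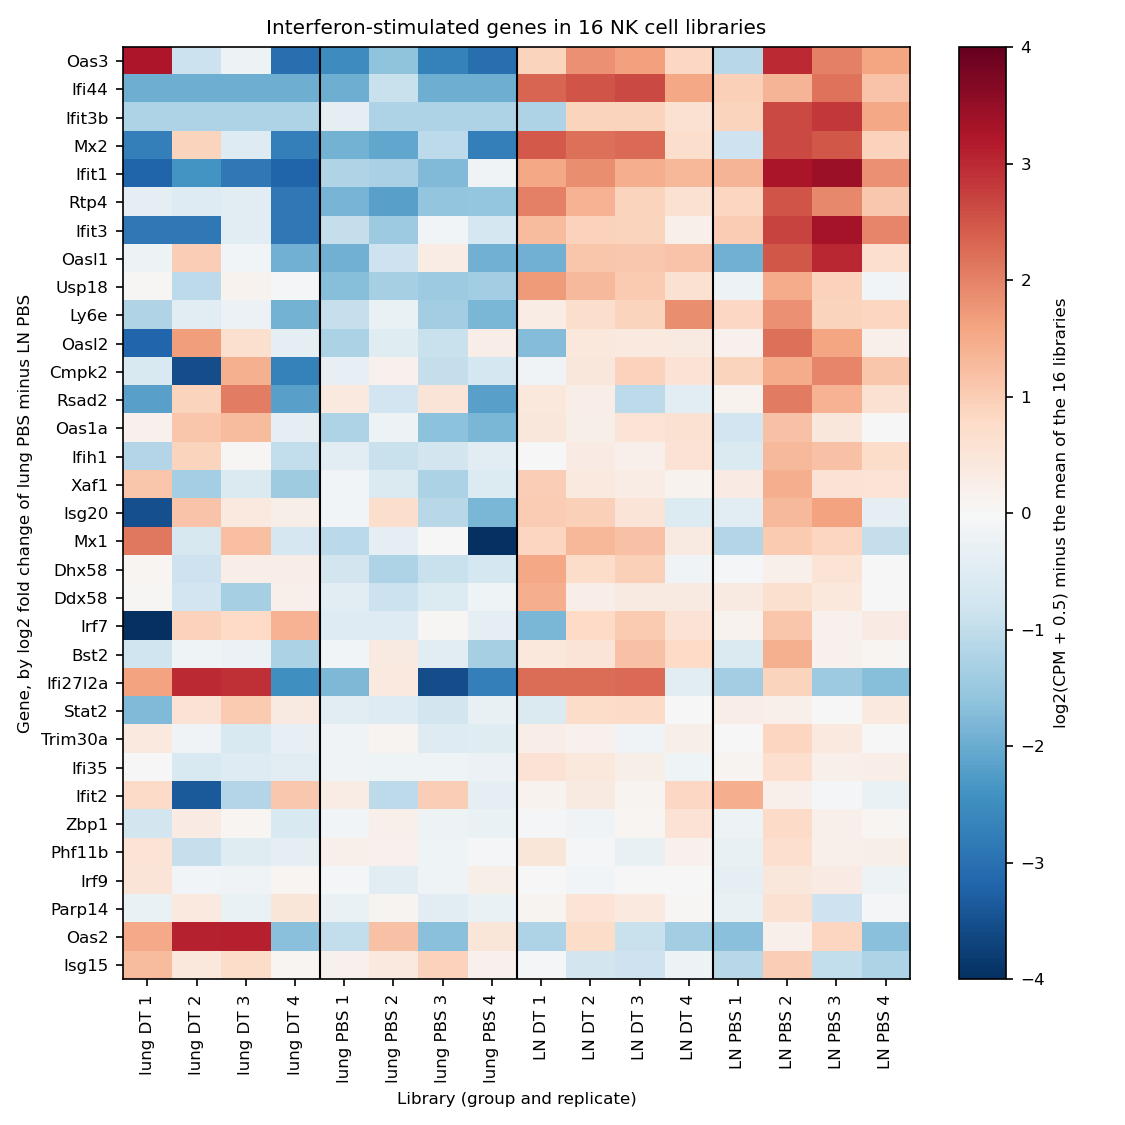
Level of each of the 33 genes (rows) in each of the 16 libraries (columns), as log2(CPM + 0.5) minus the mean of that gene over the 16 libraries; rows are ordered by the log2 fold change of lung PBS minus LN PBS, and values past -4 or 4 take the end colours. The upper rows are blue in lung and red in LN, and LN PBS replicates 2 and 3 are the reddest of their group for most genes.

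Levels differed widely among the genes. Per kilobase of exon, the highest mean in lung DT was that of Ifi27l2a, a small membrane protein of the ISG12 family, at 240.1 CPM per kb. In lung PBS it was that of Phf11b, a PHD-finger protein, at 60.5 CPM per kb. Ifi27l2a was also the highest in LN DT, at 192 CPM per kb. In LN PBS the highest was Ly6e, a lipid-anchored surface protein, at 123 CPM per kb. The lowest were Ifi44 and Ifit3b, both without a count in lung DT, Ifi44 in lung PBS at 0.023 CPM per kb, and Oas2 in LN DT at 0.154 and in LN PBS at 0.207 CPM per kb. A count in every library was found for 21 of the 33 genes; 12 had none in at least 1 lung library and 3 had none in at least 1 node library. The 33 genes summed to 1235 to 1466 CPM in lung DT, 947 to 1116 in lung PBS, 1977 to 2130 in LN DT and 1518 to 2996 in LN PBS. The width of the last range came mainly from LN PBS replicate 2, which was the highest of its group for 22 of the 33 genes; replicate 2 or 3 was the highest for 31.

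The first question was whether DT changed these genes in node NK cells, and in this test none passed. Tested in edgeR's quasi-likelihood fit of all 4 groups with Benjamini-Hochberg adjustment over 13940 genes, 0 of 33 were called at an adjusted p under 0.05, where 0.0646% of all genes were. At an unadjusted p under 0.05 there was 1, Ifi27l2a, against 11.8% of all genes. Fold changes of LN DT minus LN PBS were above 0 for 11 genes and below 0 for 22, with a median log2 fold change of -0.12 against 0.08 over all genes. No member separated the libraries of the groups completely, which 8.49% of all genes did. Without LN PBS replicate 2 the split turned, to 21 above and 12 below 0, with a median of 0.04.

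Among the induced antiviral genes, Ifi27l2a had 112, 113, 115 and 17.1 CPM in LN DT libraries, against 8.61, 43.6, 8.28 and 6.89 CPM in LN PBS libraries. DT replicates 1, 2 and 3 were thus high, but replicate 4 lay below LN PBS replicate 2, so the groups overlapped. Its log2 fold change was 2.41 ± 1.00 (SE, edgeR adjusted p = 0.350). Each SE of an edgeR log2 fold change, in text and figures, was back-calculated from the F test. It is the absolute log2 fold change divided by the square root of F, and so only an approximate standard error. Ifit1, an RNA-binding protein that holds back viral translation, had 12.8, 16.1, 12 and 11.1 CPM in LN DT libraries, against 11.3, 43.8, 48.9 and 15.9 CPM in LN PBS libraries. LN PBS replicates 2 and 3 were high and the other 2 lay within the range of the DT libraries (log2 fold change -1.21 ± 0.65, adjusted p = 0.492). Ifit3, its partner protein, had 8.21, 6.45, 6.23 and 3.74 CPM in LN DT libraries, against 6.93, 23.5, 36.3 and 13.7 CPM in LN PBS libraries. The same LN PBS libraries were highest, replicate 4 was also above all DT libraries, and replicate 1 lay among them (log2 fold change -1.71 ± 0.99, adjusted p = 0.531). The near copy Ifit3b had 0, 1.71, 1.68 and 1.32 CPM in LN DT libraries and 1.68, 6.90, 7.91 and 2.94 CPM in LN PBS libraries, with an adjusted p of 0.554.

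Of the sensors, Dhx58, which encodes the RNA helicase LGP2, had 57.3, 32.4, 38.0 and 17.7 CPM in LN DT libraries, against 18.6, 22.4, 28.5 and 19.8 CPM in LN PBS libraries. DT replicate 4 lay below all PBS libraries while the other 3 lay above them (log2 fold change 0.70 ± 0.38, adjusted p = 0.491). With the mitochondrial share in the fit this value turned to -0.16, and 9 of the 33 node values changed sign. Usp18, the protease that removes ISG15 from proteins and the brake at the receptor, had 136, 103, 86.2 and 63.3 CPM in LN DT libraries, against 36.0, 117, 79.1 and 38.6 CPM in LN PBS libraries (log2 fold change 0.53 ± 0.37, adjusted p = 0.614; -0.17 ± 0.45 with the mitochondrial share in the fit). The groups overlapped through LN PBS replicates 2 and 3. Bst2, which encodes tetherin and is also high in plasma cells and plasmacytoid dendritic cells, had 19.7, 21.5, 33.8 and 25.9 CPM in LN DT libraries, against 9.77, 40.0, 16.4 and 15.6 CPM in LN PBS libraries (log2 fold change 0.30 ± 0.48, adjusted p = 0.851). Transcripts of plasma cells moved with DT in the node: the 12 listed markers summed to 821 to 2599 CPM in LN DT libraries and 320.0 to 399 CPM in LN PBS libraries (exact permutation p = 0.0286, adjusted over the 10 cell lists 0.143). Markers of plasmacytoid dendritic cells summed to 211 to 780 CPM in LN DT and 245 to 254 CPM in LN PBS (exact permutation p = 0.143, adjusted 0.4). The part of either list in the Bst2 values was not tested. Like the plasma cell markers, the 15 NK genes separated these groups, with sums of 37430 to 74024 CPM in LN DT and 27575 to 35197 CPM in LN PBS (exact permutation p = 0.0286, adjusted 0.143).

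In lung NK cells the fold changes leaned the other way, and again none passed. Of the 33 genes 0 were called in lung DT minus lung PBS, where 0.108% of all genes were. Fold changes were above 0 for 24 and below 0 for 9, with a median of 0.42 on the log2 scale against 0.09 over all genes. An unadjusted p under 0.05 was reached by 8 of the 33, of which 7 lay above 0 and 1 below, while 14.7% of all genes reached it. Lung DT and lung PBS libraries were fully apart for 2 of the 33 genes, Usp18 and Ifit1, against 7.88% of all genes.

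Ifit1 was almost absent from lung DT libraries, with 0, 0.374, 0.138 and 0 CPM, against 1.49, 1.38, 0.845 and 3.72 CPM in lung PBS libraries. Every DT library lay below every PBS library, on sums of 4 counts in lung DT and 57 counts in lung PBS (log2 fold change -3.67 ± 0.85, adjusted p = 0.0861). Usp18 had 43.4, 19.9, 46.0 and 40.3 CPM in lung DT libraries, against 12.4, 16.1, 14.8 and 15.6 CPM in lung PBS libraries. Every DT library lay above every PBS library, and the mean was 37.4 ± 11.9 CPM in lung DT and 14.7 ± 1.63 CPM in lung PBS (SD, n = 4 each; log2 fold change 1.35 ± 0.38, adjusted p = 0.156). Oas1a, which makes the oligoadenylates that activate RNase L, had 12.5, 24.4, 27.0 and 8.37 CPM in lung DT libraries, against 4.36, 9.41, 3.14 and 2.73 CPM in lung PBS libraries. DT replicate 4 lay below PBS replicate 2, and the other 3 were above all PBS libraries (log2 fold change 1.90 ± 0.56, adjusted p = 0.164).

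Oas3, of the same enzyme family, had 37.4, 1.75, 3.03 and 0 CPM in lung DT libraries, against 0.198, 0.831, 0.121 and 0 CPM in lung PBS libraries. The difference rested on lung DT replicate 1 (log2 fold change 5.42 ± 1.51, adjusted p = 0.152); without both DT libraries numbered 1 the log2 fold change was 2.66 and the adjusted p was 0.197. Leaving out lung DT replicate 4 instead gave an adjusted p of 0.0445. That library held the lowest DT value, at 0 CPM, so this p-value is no support for a rise. Ifi27l2a had 72.0, 188, 181 and 3.92 CPM in lung DT libraries, against 6.35, 31.0, 1.57 and 3.10 CPM in lung PBS libraries. As in the node, DT replicate 4 was low and the other 3 were above every PBS library (log2 fold change 3.46 ± 1.05, adjusted p = 0.174). The 15 markers of macrophages and monocytes followed the same order in the lung DT libraries: they summed to 1911, 4551, 4164 and 728 CPM in lung DT libraries, against 1866, 5353, 1334 and 1246 CPM in lung PBS libraries. DT replicates 2 and 3 were high and 4 low for Ifi27l2a and for these markers alike, and PBS replicate 2 was the highest of its group for both. Neutrophil markers had this order in the lung as well, with 49.2, 298, 125 and 8.76 CPM in lung DT libraries. They too were highest of lung PBS in replicate 2, at 104 CPM. In the node the macrophage and monocyte markers had another order than Ifi27l2a, with 1576, 981, 1290 and 1313 CPM in LN DT libraries. In LN PBS they ranged from 963 to 1257 CPM. The part of either list in the Ifi27l2a values was not tested. Mitochondrial share differed between the lung groups, as given above. With it as a covariate the lung value of Usp18 was 0.69 ± 0.45 and that of Ifi27l2a 1.92 ± 1.43, and 5 of the 33 lung values changed sign.

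**Figure D2:**
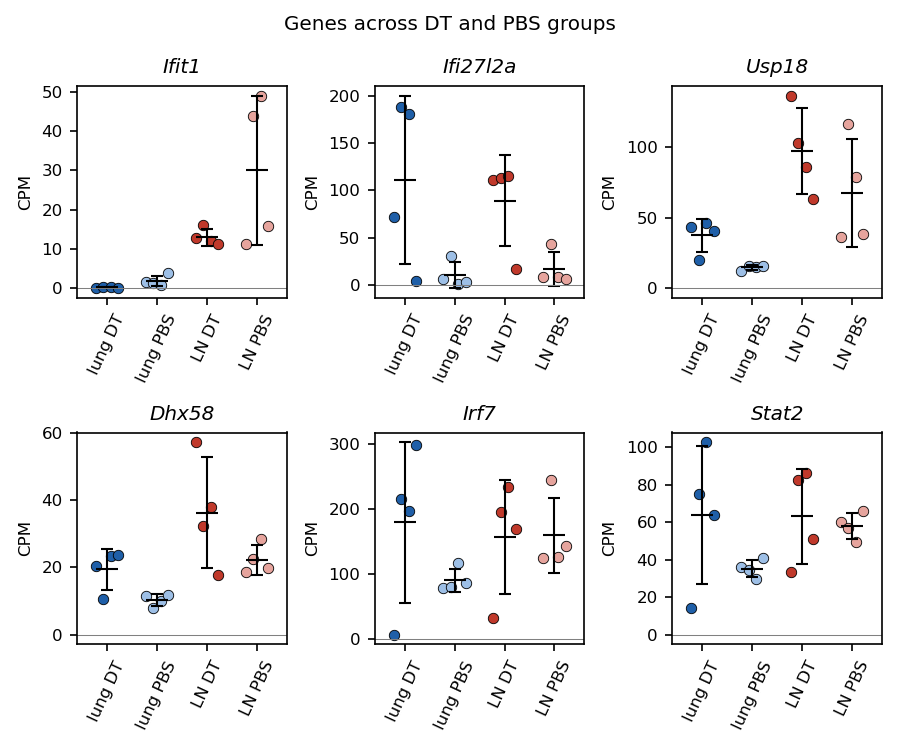
CPM of 6 genes in each library of the 4 groups; points are libraries in replicate order, horizontal marks and bars are the mean ± SD of 4. Irf7 and Stat2 are lowest in each tissue in the DT library numbered 1, Usp18 is higher in every lung DT than in every lung PBS library, and Ifi27l2a is low in the DT libraries numbered 4.

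Among the signalling factors, Irf7 and Stat2 were lowest of their tissue in the DT library numbered 1, and Irf9 was not. Irf7, the factor that amplifies interferon alpha production, had 6.30, 215, 197 and 299 CPM in lung DT libraries, against 78.1, 79.5, 116 and 86.5 CPM in lung PBS libraries. In the node it had 31.6, 196, 233 and 169 CPM in DT libraries, against 124, 245, 126 and 143 CPM in PBS libraries. In each tissue replicate 1 of DT was the lowest, and the other 3 lung DT libraries were above every lung PBS library. Irf7 and Oasl2 were the 2 genes of the 33 for which both of those libraries lay below the other 14. With all libraries Irf7 was not called in either tissue (log2 fold change 1.00 ± 0.68 in lung, adjusted p = 0.515, and -0.02 ± 0.68 in the node, adjusted p = 0.998). Without both DT libraries numbered 1, its lung value was 1.33 ± 0.25 with an adjusted p of 0.0160, and its node value 0.32 ± 0.25 with an adjusted p of 0.664. Leaving out the lowest DT values raises the DT side by itself, so this p-value is no support for a rise. In lung that fit called 3.3% of all genes, against 0.108% with all libraries.

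Stat2, the transactivating part of the signalling complex, followed a similar order. It had 14.3, 74.9, 103 and 63.7 CPM in lung DT libraries, against 35.9, 34.6, 29.9 and 40.6 CPM in lung PBS libraries. In the node it had 33.5, 82.4, 86.0 and 50.9 CPM in DT libraries, against 59.96, 57.1, 49.2 and 65.7 CPM in PBS libraries. The lung value of 0.86 ± 0.42 (adjusted p = 0.356) became 1.13 ± 0.23 with an adjusted p of 0.0224 without both DT libraries numbered 1. For Stat2 too the libraries left out held the lowest DT values, so this p-value is no support for a rise. Irf9, the DNA-binding part of the complex, was highest of all 16 libraries in lung DT replicate 1, at 187 CPM, and highest of LN DT in replicate 1, at 133 CPM. Its group means were close: its means were 142 ± 31.6 CPM in lung DT and 124 ± 24.0 CPM in lung PBS, and 129 ± 4.65 CPM in LN DT and 140 ± 38.7 CPM in LN PBS (SD, n = 4 each), with adjusted p of 0.743 and 0.893.

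The other genes fall into an even group and a wide one. Fold changes of DT minus PBS lay between -0.25 and 0.34 on the log2 scale in both tissues for Trim30a, a ubiquitin ligase, Parp14, an ADP-ribosyltransferase, Zbp1, a sensor of Z-form nucleic acid, Phf11b, Ifi35 and Irf9. Ddx58, which encodes the RNA sensor RIG-I, was as even apart from LN DT replicate 1, with 284, 124, 132 and 132 CPM in LN DT libraries, against 133, 161, 139 and 105 CPM in LN PBS libraries. Values of Xaf1, a partner of the apoptosis inhibitor XIAP, were 0.42 ± 0.48 in lung and -0.30 ± 0.48 in the node. The lung value of Xaf1 rested on lung DT replicate 1, at 97.0 CPM against 16.3 to 30.2 CPM in the other lung DT libraries: it was -0.57 ± 0.33 without both DT libraries numbered 1, and -0.28 with the mitochondrial share in the fit. Values of Ifit2 were -0.06 ± 0.71 in lung and -0.11 ± 0.71 in the node. The genes of few counts had the widest errors. Rsad2, which encodes the antiviral enzyme viperin, had a fold change of 1.04 ± 1.34 in lung and -1.55 ± 1.35 in the node, and Oasl2, a relative of the Oas enzymes, 1.10 ± 1.00 in lung and -1.30 ± 0.99 in the node. Oas2 had 4.01, 12.8, 13.1 and 0 CPM in lung DT libraries, against 0.298, 3.05, 0 and 1.73 CPM in lung PBS libraries, so that 3 DT libraries were above all PBS libraries and replicate 4 was at 0 (2.60 ± 1.61, adjusted p = 0.468). Mx1, a GTPase that blocks influenza viruses, had 44.1, 6.11, 23.4 and 6.01 CPM in lung DT libraries, against 4.46, 7.48, 10.0 and 0.124 CPM in lung PBS libraries. DT replicates 1 and 3 were high and the other 2 lay among the PBS libraries (1.86 ± 0.87, adjusted p = 0.331). Isg20, an RNA exonuclease, had 0.60 ± 0.96 in lung and -0.22 ± 0.95 in the node, Cmpk2, a mitochondrial nucleotide kinase, 0.26 ± 0.97 in lung and -0.96 ± 0.96 in the node, and Oasl1, which holds back translation of Irf7, 1.24 ± 1.57 in lung and -1.35 ± 1.51 in the node. None of these values passed.

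**Figure D3:**
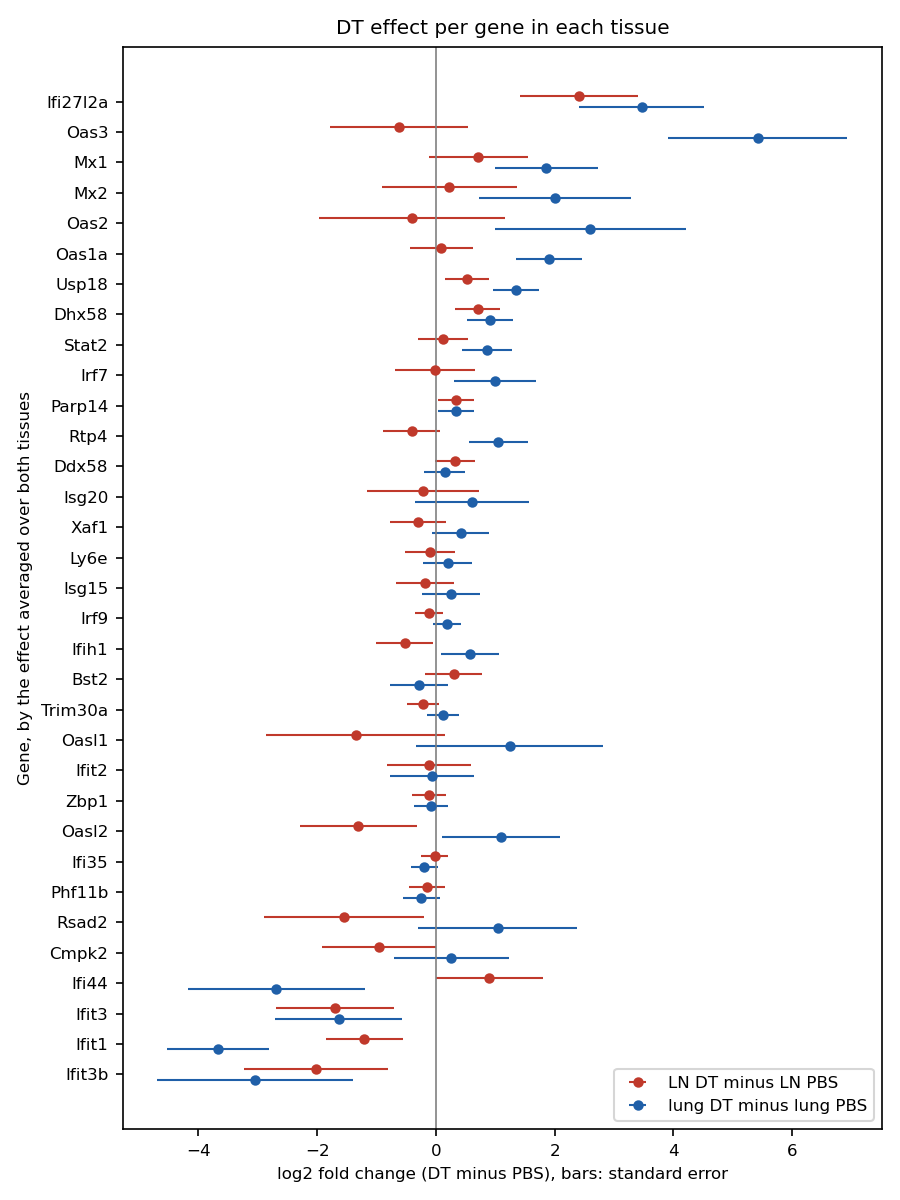
log2 fold change of DT minus PBS for each of the 33 genes in LN (red) and in lung (blue), with bars of 1 SE; rows are ordered by the effect averaged over both tissues. Ifi27l2a lies to the right in both tissues, Ifit1, Ifit3 and Ifit3b lie to the left in both, and no single-tissue value passed at an adjusted p under 0.05; the lung values of Ifi44 and Ifit3b, which have no count in lung DT, depend on the prior count.

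Averaged over node and lung, which puts libraries of both tissues on each side, Ifi27l2a was called higher and Ifit1 lower with DT. The labels do not say whether lung and node libraries come from the same mice. If they do, the libraries of a side are not all separate animals, as the p-values take them to be. Of the 33 genes 1 was called higher, where 2.47% of all genes were, and 1 was called lower, where 1.43% were. With 1 gene each, neither count stands out from the share of all genes. Ifi27l2a rose by 2.94 ± 0.72 on the log2 scale (adjusted p = 0.0377), with 6 of the 8 DT libraries above every PBS library of their tissue. Ifit1 fell by 2.44 ± 0.54 on that scale (adjusted p = 0.0249). Usp18, at 0.94 ± 0.27, had an adjusted p of 0.0561. Fold changes lay above 0 for 20 genes and below 0 for 13, with a median of 0.04 against 0.09 over all genes.

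Both calls were sensitive to the libraries used. With the mitochondrial share as a covariate neither passed (Ifit1 -2.79, adjusted p = 0.991, and Ifi27l2a 1.35, adjusted p = 1). Usp18 was then at 0.26 ± 0.38 (adjusted p = 1). In that fit 0 of all 13940 tested genes passed, and 10 of the 33 values changed sign. The Ifit1 call was lost when LN PBS 2 or 3, LN DT 2 or 3, or lung PBS 1 was left out, with adjusted p between 0.0503 and 0.0665. That of Ifi27l2a was lost when any 1 of 10 libraries was left out (LN PBS 1, 3 or 4, LN DT 1, 2 or 3, lung PBS 1 or 3, lung DT 2 or 3), with adjusted p up to 0.0937. Without both DT libraries numbered 1 the 2 calls stood, at adjusted p of 0.0211 and 0.0480, and Irf7 and Stat2 joined them with higher values, where 9.55% of all genes were called. Irf7 and Stat2 had their lowest DT values in the libraries left out, so their joining is no support for a rise.

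Whether the DT effect differed between the tissues was tested as an interaction. Of the 33 genes 0 passed, where 0.00717% of all genes did, and 4 had an unadjusted p under 0.05, where 4.2% of all genes did. The DT effect in LN minus that in lung was below 0 for 25 of the 33 genes, with a median of -0.72 on the log2 scale against 0.03 over all genes. The smallest p belonged to Oas3 (-6.04 ± 1.89, adjusted p = 0.839), followed by Oas1a (-1.81 ± 0.76) and Ifit1 (2.47 ± 1.05), both with an adjusted p of 1. Without LN PBS replicate 2 the median was -0.20.

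The other comparison in the design is that of the tissues. In mice given PBS, 6 of these transcripts were lower in NK cells of the lung than in NK cells of the draining node, among them Rtp4, Usp18, Ifit1 and Ly6e. These 6 of 33 stand against 0.904% of all genes called lower, and 0 were called higher. Fold changes of lung PBS minus LN PBS were below 0 for 31 of 33, with a median of -1.19 on the log2 scale, against -0.01 over all genes. Lung PBS and LN PBS libraries were fully apart for 16 genes, all lower in lung, against 9.91% of all genes.

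The called genes span several roles. Rtp4, a Golgi chaperone of cell-surface receptors that is induced by interferon (ENSMUSG00000033355, chr16:23520291-23614222 on GRCm38), had 7.24, 5.81, 8.93 and 9.29 CPM in lung PBS libraries, against 51.2, 161, 106 and 59.9 CPM in LN PBS libraries. No lung library came near the lowest node library (log2 fold change -3.59 ± 0.53, adjusted p = 7.68e-04). Usp18 (ENSMUSG00000030107, chr6:121245906-121270917) had the 12.4 to 16.1 CPM given above in lung PBS libraries, against 36.0 to 117 CPM in LN PBS libraries, and fell by 2.20 ± 0.39 on the log2 scale in lung (adjusted p = 0.00350). Ifit1 (ENSMUSG00000034459, chr19:34640871-34650009) averaged 1.86 ± 1.27 CPM in lung PBS and 30.0 ± 19.1 CPM in LN PBS (SD, n = 4 each), and fell by 3.99 ± 0.74 on the log2 scale (adjusted p = 0.00436).

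Ly6e (ENSMUSG00000022587, chr15:74955051-74959905) had 110, 171, 78.3 and 58.6 CPM in lung PBS libraries, against 367, 732, 382 and 379 CPM in LN PBS libraries. It was the most abundant of the 33 per kilobase in LN PBS, and its highest lung library held less than any node library (log2 fold change -2.15 ± 0.44, adjusted p = 0.00838). Ifi44, an interferon-induced protein with a GTPase-like domain (ENSMUSG00000028037, chr3:151730922-151749960), had 0, 0.554, 0 and 0 CPM in lung PBS libraries, against 3.26, 4.48, 8.28 and 3.84 CPM in LN PBS libraries. On 2 counts in lung PBS and 169 in LN PBS it was 73.1-fold lower in lung, with a 95% counting interval of 19.9 to 609 that covers counting error only (adjusted p = 0.0179). Oas3 (ENSMUSG00000032661, chr5:120753098-120777661) had the values up to 0.831 CPM given above in lung PBS libraries, against 1.37, 31.7, 15.9 and 11.5 CPM in LN PBS libraries (log2 fold change -5.94 ± 1.54, adjusted p = 0.0390).

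**Figure D4:**
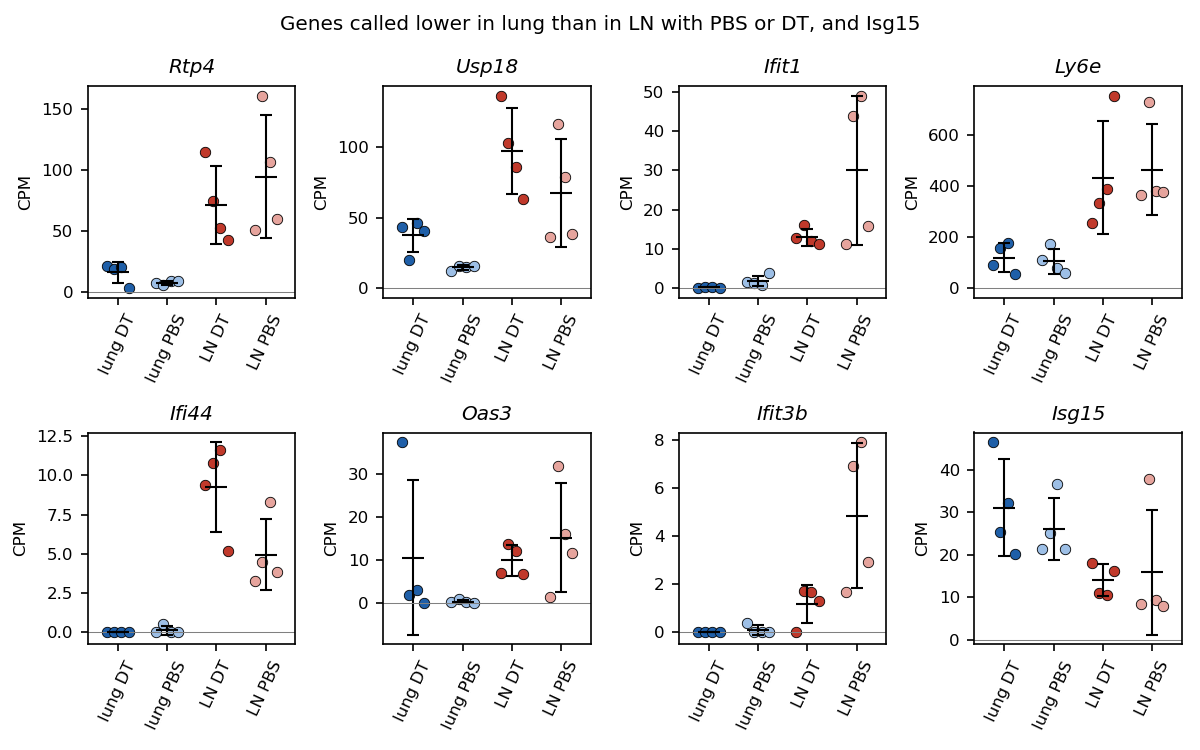
CPM of 8 genes in each library of the 4 groups; points are libraries in replicate order, horizontal marks and bars are the mean ± SD of 4. In 7 panels the lung PBS libraries lie at or near the bottom and the node libraries mostly above them, Oas3 has 1 lung DT library at 37.4 CPM, and Isg15 has every node library other than LN PBS replicate 2 below every lung library.

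The calls of Rtp4, Usp18, Ifit1 and Ly6e held without any 1 library. Oas3 lost its call without any 1 of 9 libraries (LN PBS 2, 3 or 4, LN DT 2 or 3, or any lung PBS library), with adjusted p up to 0.116, and Ifi44 without LN PBS replicate 3 or lung PBS replicate 1, 3 or 4, with adjusted p up to 0.0629. Without lung DT replicate 1 the count of calls was 10, all lower in lung, where 2.19% of all genes were called lower. Transcripts of other cells differed between these tissues as well. The 15 B cell markers summed to 122 to 352 CPM in lung PBS and 665 to 1155 CPM in LN PBS, and the 13 T cell markers to 1028 to 1583 CPM in lung PBS and 1584 to 2012 CPM in LN PBS. Neutrophil markers summed to 18.5 to 104 CPM in lung PBS and 0.484 to 12.4 CPM in LN PBS, and markers of red cells and platelets to 315 to 1011 CPM in lung PBS and 1.21 to 29.8 CPM in LN PBS. The NK genes themselves summed to 45980 to 48731 CPM in lung PBS and 27575 to 35197 CPM in LN PBS. Each of these 5 sums had an exact permutation p of 0.0286 (adjusted over the 10 lists 0.0571). Markers of macrophages and monocytes summed to 1246 to 5353 CPM in lung PBS and 963 to 1257 CPM in LN PBS (exact permutation p = 0.0571). The part of these sums in the tissue difference of the interferon-stimulated genes was not tested.

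The remaining genes of the families lay below 0 without passing. Ifit3b had a log2 fold change of -5.21 ± 1.45 in lung PBS minus LN PBS (adjusted p = 0.0632), Mx2, annotated as a polymorphic pseudogene, one of -4.60 ± 1.37 (adjusted p = 0.0705), and Ifit3 one of -3.52 ± 1.08 (adjusted p = 0.0794). The RNA sensors Ifih1 (-1.47), Dhx58 (-1.11) and Ddx58 (-0.86) had adjusted p of 0.107, 0.127 and 0.189. Irf7 (-0.82), Stat2 (-0.72) and Irf9 (-0.17) had adjusted p of 0.626, 0.434 and 0.796. The 2 genes above 0 were Isg15, the ubiquitin-like modifier that Usp18 removes, at 0.72 ± 0.49 (adjusted p = 0.517), and Oas2 at 0.41 ± 1.56.

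In mice given DT the tissue difference was measured again, in libraries that the PBS comparison did not use, although both come from the same fit. Of the 33 genes 6 were called lower in lung DT than in LN DT, where 2.78% of all genes were, and 0 were called higher. Of these, 5 were also among the 6 called in PBS: Ifit1, Ifi44, Ly6e, Rtp4 and Usp18. Over all genes 335 were called in both comparisons, out of 503 in PBS and 941 in DT. Fold changes were below 0 for 22 of 33 genes in DT, with a median of -0.37 on the log2 scale against -0.04 over all genes. The sign was the same in DT and PBS for 72.7% of the 33 genes and for 72.1% of all genes. The libraries did not overlap for 8 genes lower in lung, against 6.08% of all genes, and for 1 gene higher in lung, Isg15, against 5.57%.

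Ifit1 showed the smallest p, with the 0 to 0.374 CPM given above in lung DT libraries, against 11.1 to 16.1 CPM in LN DT libraries, and fell by 6.46 ± 0.89 on the log2 scale in lung (adjusted p = 3.37e-04). Ifi44 had no count in any lung DT library, against 9.41, 10.8, 11.6 and 5.17 CPM in LN DT libraries. Against a floor of 3 counts over the 4 lung libraries and 281 counts in LN DT, it was at least 90.7-fold lower in lung (adjusted p = 0.00213). Ifit3b had no count in lung DT either, against the 0 to 1.71 CPM given above in LN DT libraries, on 39 counts in all, which makes it at least 12.6-fold lower in lung (adjusted p = 0.0427). Because LN DT replicate 1 is also at 0, its groups overlap.

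Ly6e had 89.4, 156, 177 and 56.2 CPM in lung DT libraries, against 258, 335, 387 and 756 CPM in LN DT libraries, with no overlap (log2 fold change -1.86 ± 0.43, adjusted p = 0.0150). Rtp4 had 21.6, 19.4, 20.8 and 3.40 CPM in lung DT libraries, against 115, 74.6, 52.4 and 42.9 CPM in LN DT libraries, with no overlap (log2 fold change -2.12 ± 0.50, adjusted p = 0.0162). Usp18 averaged 37.4 ± 11.9 CPM in lung DT and 97.3 ± 30.8 CPM in LN DT (SD, n = 4 each; log2 fold change -1.38 ± 0.38, adjusted p = 0.0363). With the replicate number added to the fit as a block over all 16 libraries, 5 genes were called. Usp18 (adjusted p = 0.0597) and Ifit3b (adjusted p = 0.0836) left and Ifit3 (-4.58, adjusted p = 0.0282) entered. Each block joined same-numbered libraries of DT and PBS as well as of lung and node, so it is not a pairing by animal. Same-numbered lung PBS and LN PBS libraries correlated at only -0.0224, 0.191, -0.0303 and -0.00119 in their deviations from the group mean.

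The Ifit1, Ifi44 and Rtp4 calls held without any 1 library, and that of Ly6e was lost when LN DT 4 was left out, at an adjusted p of 0.0544. Usp18 lost its call without LN DT replicate 1, 2 or 3, lung PBS replicate 3, or lung DT replicate 2 or 4, with adjusted p up to 0.0915. Ifit3b lost its call in 11 of the 16 fits that left out 1 library (without LN PBS 2, 3 or 4, LN DT 2, 3 or 4, lung PBS 2 or 3, or lung DT 2, 3 or 4), with adjusted p up to 0.0926. For 5 of the 33 genes every lung library, DT or PBS, lay below every node library: Ifit1, Ifit3, Ifi44, Rtp4 and Ly6e.

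**Figure D5:**
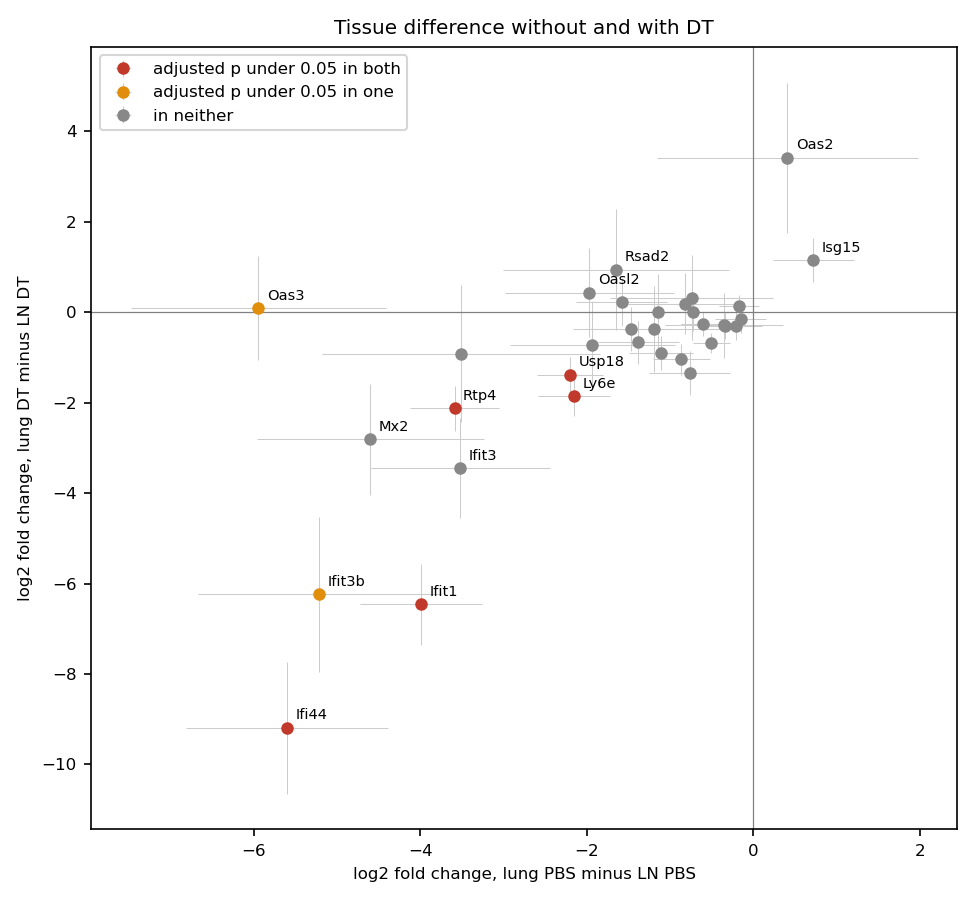
log2 fold change of lung minus LN for the 33 genes in PBS libraries (horizontal) and in DT libraries (vertical), with bars of 1 SE; the fitted values of Ifi44 and Ifit3b, without a count in lung DT, depend on the prior count. The genes called in both comparisons lie at the lower left with Ifit3b, and Isg15 and Oas2 are above 0 on both axes.

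Isg15 lay above 0 in both tissue comparisons and, with all libraries, passed in neither. It had 46.5, 25.4, 32.1 and 20.1 CPM in lung DT libraries, against 18.1, 11.1, 10.4 and 16.3 CPM in LN DT libraries. Every lung library was above every node library, but the difference did not pass (log2 fold change 1.15 ± 0.49, adjusted p = 0.182). In mice given PBS it had 21.2, 25.2, 36.6 and 21.3 CPM in lung libraries, against 8.40, 37.8, 9.27 and 7.79 CPM in node libraries. There 3 node libraries were below all lung libraries and LN PBS replicate 2 was above them. Without LN PBS replicate 2 the log2 fold change was 1.62 ± 0.41, higher in lung, with an edgeR adjusted p of 0.0481. Leaving out the highest node value lowers the node side by itself, so this p-value is no support for a difference. With all libraries the DT effect on Isg15 was 0.25 ± 0.49 in lung (adjusted p = 0.840) and -0.18 ± 0.49 in the node (adjusted p = 0.930).

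Oas3 did not carry its tissue difference over to DT, where its log2 fold change was 0.09 ± 1.16 (adjusted p = 0.978). Lung DT replicate 1 held 37.4 CPM of Oas3. Without both DT libraries numbered 1, which takes a library from each side of this comparison, the value was -2.76 with an adjusted p of 0.144. Bst2 had 8.16, 13.1, 12.4 and 5.88 CPM in lung DT libraries, against the 19.7 to 33.8 CPM given above in LN DT libraries, with no overlap (log2 fold change -1.35 ± 0.49, adjusted p = 0.112). Ifit3 had 0, 0, 2.21 and 0 CPM in lung DT libraries, against 3.74 to 8.21 CPM in LN DT libraries (log2 fold change -3.45 ± 1.11, adjusted p = 0.0712). The plasma cell markers summed to 366 to 421 CPM in lung DT and 821 to 2599 CPM in LN DT. The B cell markers summed to 67.4 to 516 CPM in lung DT and 570.4 to 1865 CPM in LN DT, and the neutrophil markers to 8.76 to 298 CPM in lung DT and 0.659 to 5.76 CPM in LN DT. Each of the 3 sums had an exact permutation p of 0.0286 (adjusted over the 10 lists 0.0952), and their part in these values was not tested.

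Upstream of these genes, the only calls were among genes of nucleic acid sensing. Of 14 type I interferon genes listed, 13 had no count in any library, and Ifnk had at most 22 counts in 1 library; none could be tested. Of the 10 tested genes of the receptors and the JAK-STAT cascade 0 were called in any of the 6 comparisons. Ifnar1 had a log2 fold change of 0.26 ± 0.42 in lung DT minus lung PBS (adjusted p = 0.805) and 0.09 ± 0.42 in LN DT minus LN PBS (adjusted p = 0.960). Ifnar2 had -0.61 ± 0.38 in lung (adjusted p = 0.478) and -0.76 ± 0.38 in the node (adjusted p = 0.451). The 9 genes of feedback brakes other than Usp18 also had 0 calls in all 6. Among 15 tested genes of nucleic acid sensing, 1 was called lower in lung PBS than in LN PBS, where 0.904% of all genes were. In lung DT minus LN DT 2 were called lower, where 2.78% of all genes were. Irf3, the factor that starts interferon beta transcription, was lower in lung in PBS (-1.13 ± 0.26, adjusted p = 0.0217) and in DT (-1.16 ± 0.26, adjusted p = 0.0129). For DT averaged over the tissues 1 of the 15 was called higher, where 2.47% of all genes were.

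A wider list held 86 tested interferon-stimulated genes outside the 33. In lung PBS minus LN PBS, 5 were called lower, where 0.904% of all genes were, and 0 higher; 65 were below 0 and 21 above, and the median was -0.66 on the log2 scale against -0.01 over all genes. Among the 5, Ifi206 fell by 4.32 ± 0.94 (adjusted p = 0.0134) and Slfn8 by 1.10 ± 0.26 (adjusted p = 0.0209). In lung DT minus LN DT, 5 were called lower, where 2.78% of all genes were, and 0 higher, with a median of -0.42 against -0.04; Ms4a4b fell by 2.48 ± 0.42 (adjusted p = 0.00201). For DT averaged over the tissues 3 were called higher, where 2.47% of all genes were, and 0 lower, with a median of 0.10 against 0.09, so that the list lay near all genes. Iigp1, a GTPase that coats the vacuoles of intracellular parasites, rose by 3.30 ± 0.64 (adjusted p = 0.0153), and Ifitm1, which blocks the entry of viruses, by 3.61 ± 0.75 (adjusted p = 0.0210). In either tissue alone 0 of the 86 passed.

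Targets of interferon gamma, which NK cells make themselves, were mostly above 0 after DT. Of 25 tested, 3 were called higher, where 2.47% of all genes were, and 0 lower in the DT effect averaged over the tissues, 24 were above 0, and the median was 0.55 on the log2 scale against 0.09 over all genes. Gbp8, a guanylate-binding protein, rose by 2.34 ± 0.40 (adjusted p = 0.00850) and Iigp1 as given above; Nlrc5, which drives class I antigen presentation genes, was the third. Medians in single tissues were 0.65 in lung, against 0.09 over all genes, and 0.37 in the node, against 0.08, with 0 calls in each.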

How the data were processed

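The table the authors deposited holds raw read counts per gene for 16 libraries, and all its values are whole numbers; the submitters' processing notes name HISAT2, HTSeq and the build GRCm38, without versions. Genes kept by filterByExpr (minimum count 10, minimum total 15) entered a quasi-likelihood fit of 4 group means in edgeR 4.0.16 under R 4.3.3 (TMM, robust=TRUE; 12 residual degrees of freedom, common BCV 0.621). Contrasts were 6, with two-sided F tests and Benjamini-Hochberg adjustment over 13940 genes; called means an adjusted p under 0.05. The test was also run on simulated counts, drawn independently for each gene and library. Apart from depth, those counts hold no shift shared by the genes of a library, so the run does not cover such shifts. CPM use TMM-scaled totals. Sums over cell markers were compared by exact permutation, for which 4 against 4 gives a smallest p of 0.0286. Transcript overlap came from the GENCODE annotation of GRCm38. Floors of 3 counts and 95% intervals cover counting error only, and depth limits what genes of few counts can show.

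The 33 genes, the other lists and the rule for naming genes were chosen with earlier results of these data known. Named in full, apart from 1 gene that is not reported here, are genes called in any contrast, the 3 of smallest p in each, and 9 fixed genes; other genes are named after their values were seen. Alternatives were median-ratio size factors, total counts, other filters, robust=FALSE, DESeq2 1.42.0, limma-voom (limma 3.58.1), a replicate block, the mitochondrial share as a covariate, 2-group fits, and fits without libraries. Replicate numbers come from the labels, which do not say that they mark an animal. Deviations from the group mean correlated between same-numbered lung DT and LN DT libraries at 0.412, 0.194, 0.230 and 0.184. In the other pairs of groups they did not correlate at over 0.1 for every number. Libraries of different number also correlated, lung DT 3 with LN DT 2 at 0.229 and lung DT 2 with LN DT 3 at 0.181. The remaining pairs of lung DT and LN DT libraries lay between -0.292 and 0.015. No 2 libraries were duplicates. P-values take each library as a separate animal.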

Additional observations from a re-analysis of the deposited data

Results flagged for a closer look

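Libraries far from the other 3 of their group, by the gap to the nearest divided by the range, were sought. Dixon's critical value for 4 was passed in 17 of 130 combinations of gene and group with any range (13.1%). That value marks about 5% for normally distributed values. CPM of few counts are not so distributed, so no excess is read from the share. In LN PBS, replicate 2 was high for Isg15 (37.8 CPM), Irf7 (245 CPM), Ifi27l2a (43.6 CPM), Xaf1 (125 CPM) and Ly6e (732 CPM), and replicate 1 was high for Ifit2 (44.8 CPM). In LN DT, replicate 1 was high for Ddx58 (284 CPM) and low for Oasl1 (0 CPM) and Oasl2 (0.855 CPM), replicate 2 was high for Oas2 (2.11 CPM), and replicate 4 was low for Ifi27l2a (17.1 CPM). In lung DT, replicate 1 was high for Oas3 (37.4 CPM), replicate 3 was high for Ifit3 (2.21 CPM, 16 counts, with the others at 0) and replicate 4 was low for Rtp4 (3.40 CPM). In lung PBS, replicate 2 was high for Ifi27l2a (31.0 CPM) and for Ifi44 (0.554 CPM, 2 counts), and replicate 1 for Ifit3b (0.397 CPM, 4 counts), each of the last 2 with the others at 0.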

How the results depend on the processing

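The number of the 33 genes called moved as follows. For LN DT minus LN PBS, limma-voom gave 7, where it called 26.7% of all genes. For lung DT minus lung PBS, DESeq2 gave 5 (3.27% of all genes), limma-voom 1 (3.16%), the fit without both DT libraries numbered 1 gave 3 (3.3%), and leaving out 1 library gave 0 to 1 (up to 0.888%). For the averaged DT effect, no gene filter gave 1 (1.39%), DESeq2 6 (11.5%), limma-voom 6 (27.1%), the mitochondrial covariate 0 of the 33 and of all genes, the fit without both DT libraries numbered 1 gave 4 (9.55%), and leaving out 1 library 0 to 4 (0.611% to 9.16%). For lung PBS minus LN PBS, DESeq2 gave 12 (8.46%), limma-voom 17 (16.3%) and the 2 groups alone 14 (11.8%). There the fit without both DT libraries numbered 1 gave 12 (9.47%), and leaving out 1 library 4 to 10 (1.84% to 6.85%). Without LN PBS replicate 2 the calls included Isg15, higher in lung, as given above. For lung DT minus LN DT, limma-voom gave 10 (12.8%) and the 2 groups alone 2 (2.54%). In LN DT minus LN PBS, limma-voom gave 19 values above 0 and 14 below, with a median of 0.08 against 0.16 over all genes. The median log2 fold change moved in the interaction (limma-voom -0.23; leaving out 1 library -0.74 to -0.20) and in lung DT minus LN DT (limma-voom -0.91). Dhx58 and Usp18 in the node turned to -0.16 and -0.17 with the mitochondrial covariate. The causes were not tested. Scaling by total counts alone shifted the median of all genes in lung PBS minus LN PBS from -0.01 to -0.18. Over 27 alternatives, Rtp4, Usp18, Ifit1 and Ly6e stayed called lower in lung PBS than in LN PBS, and Ifit1 in lung DT than in LN DT. The replicate block changed no call in the other comparisons. Depth limits Ifi44 and Ifit3b, which rest on few counts in lung. It also limits Ifit1, with 4 counts in lung DT and 57 in lung PBS, and Oas3 in lung PBS, with 6 counts.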
